A study of Mus musculus with 22 samples.

Results

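The comparison set 3 livers given rAAV9.CB.ST3GAL5 against 4 livers given PBS, all genes included. The members are 7 of the 22 liver libraries of the series, chosen by their labels, and 14866 genes were tested between them. All were livers of male C57BL/6 pups of WT genotype, injected IV on postnatal day 1 and collected 36 hours later according to the labels. rAAV9.CB.ST3GAL5, called rAAV9-ST3GAL5.v1 below or simply the vector, is an AAV9 capsid with a human ST3GAL5 cDNA behind the CB promoter, which is active in most cell types. ST3GAL5 is GM3 synthase, the sialyltransferase that makes the ganglioside GM3. The PBS pups received no capsid, no vector genome and no cargo, so those elements of the treatment cannot be told apart in this comparison. For that reason 2 other groups of 4 livers of the same series were used for differences only, namely capsids without a genome (AAV9.empty) and rAAV9.CB.EGFP (AAV9.EGFP), which shares capsid and promoter and carries EGFP. Litters are not given, so the p-values cover only the spread among the livers sampled, which may share a litter.

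An AAV9 vector given into a vein delivers much of its dose to hepatocytes, the parenchymal cells of the liver. Hepatocytes make most plasma proteins, convert ammonia into urea, break down amino acids, make bile acids and clear foreign compounds through cytochrome P450 and conjugating enzymes. Under inflammatory cytokines such as interleukin-1 and those of the interleukin-6 family they make acute-phase proteins through NF-kB, C/EBP and STAT3, and under genotoxic or ribosomal stress the transcription factor p53 raises genes of growth arrest and apoptosis. In the first days after birth the mouse liver still makes blood cells, so its RNA holds erythroid and myeloid transcripts beside those of hepatocytes.

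Expected counts summed to 19299527 to 24305788 per library in PBS and to 18431040 to 22769658 with the vector. The unit of level is CPM, the count of a gene relative to the size of its library after TMM scaling over all 22 libraries, listed for PBS replicates 1 to 4 and then for vector replicates 1 to 3. Among the vector livers replicate 2 stood apart. Its level was the highest of the group in 501 of the 714 genes called higher, and genes of the interferon response were far above those of its 2 group mates, so values that rest on it are also given without it. Replicate 3 changed least, with the lowest level in 474 of the genes called higher and the highest in 483 of the 626 called lower. Another mark of the libraries was Gm47283, a gene of chromosome Y, at 14.7, 21.7, 16.2 and 15.8 CPM in PBS and without a count in any vector liver. Erdr1, of the pseudoautosomal region, was at 3.28, 5.29, 1.92 and 2.94 CPM in PBS and likewise without a count. With 3 counts as the floor of the vector group these were at least 367-fold and 71.3-fold lower. Since the absence runs with the groups in this comparison, it cannot be told apart from the treatment here. Elsewhere in the series Gm47283 had 453, 384, 231 and 0 counts with AAV9.empty and 0, 0, 355 and 0 with AAV9.EGFP. In groups not compared here it had 603, 233 and 164 counts with rAAV9.CB.ST3GAL5.E332K and 405, 521, 0 and 0 with rAAV9.Syn1.ST3GAL5.miR122BS. The cause was not tested. Mid1, which spans the boundary of that region, was at 5.17, 5.34, 3.05 and 8.72 CPM in PBS and 4.46, 5.97 and 4.81 CPM with the vector, which differed by −0.15 ± 0.31 (SE) on the log2 scale and did not pass (adjusted p = 0.76), and by 0.14 without PBS replicate 4.

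Of the 14866 genes tested, 714 were called higher with the vector (4.8% of the genes) and 626 lower (4.21%), where a call asked for 2-fold or more and a Benjamini-Hochberg adjusted p no larger than 0.05 in edgeR's quasi-likelihood test. On the adjusted p alone 1852 were higher (12.5%) and 1893 lower (12.7%), the latter 1204 without vector replicate 1. That rule was used for the members of gene lists, so 12.5% and 12.7% are the shares to set beside the counts of each list. In 1301 of the 1340 called genes the CPM of the groups did not overlap, while over all genes tested every vector liver was above every PBS liver in 2873 and below in 2417. Rises were larger than falls, since 273 genes were at least 4-fold higher and 133 at least 4-fold lower, and 54 were at least 16-fold higher against 6 lower. Of the genes called higher 223 had a mean under 1 CPM in PBS, against 34 of those called lower. Genes called higher held 1.37% to 1.41% of all counts in the PBS livers and 3.45% to 5.62% in the vector livers, whereas genes called lower held 3.81% to 4.43% and 1.46% to 2.07%. Over all genes tested the log2 fold change had a median of 0.01 and quartiles at −0.27 and 0.28.

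**Figure D1:**
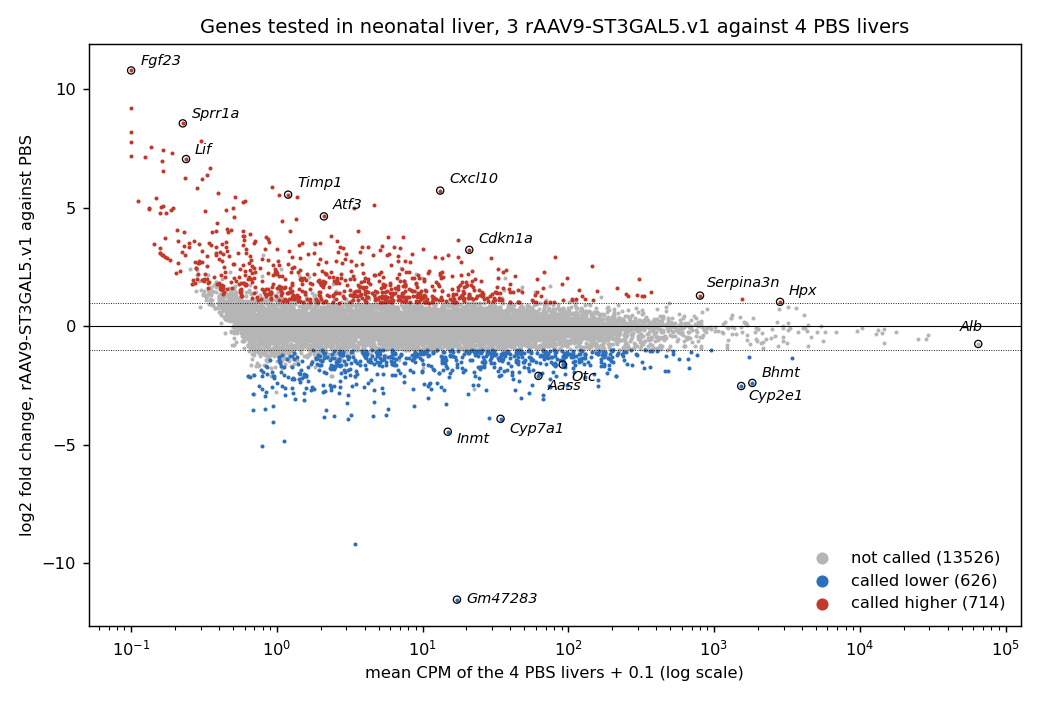
Each point is 1 of the 14866 genes tested, with the mean CPM of the 4 PBS livers plus 0.1 on a log axis and the log2 fold change of the vector against PBS on the other; dotted lines mark a fold change of 2. Of the 714 genes called higher 223 lie under 1 CPM in PBS, while the 626 called lower reach abundant genes such as Cyp2e1 and Bhmt; genes without a PBS count, at the left edge, have a fitted value that is no bound.

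The 10 largest rises among genes called higher, with separate groups and at least 1 CPM with the vector, were in genes that the PBS livers barely expressed. Fgf23, a phosphate-regulating hormone that bone cells normally make, had no count in any PBS liver and 8.29, 19.1 and 3.91 CPM with the vector, at least 283-fold higher when 3 counts are taken as the floor of the PBS group. Ptgs2, the inducible cyclooxygenase, was likewise without a count in PBS and at 1.52, 8.43 and 0.617 CPM with the vector, at least 93.8-fold higher. Fosl1, the AP-1 subunit Fra-1, was at 2.5, 1.71 and 1.03 CPM against none, at least 48.2-fold, and Areg, the growth factor amphiregulin, at 1.18, 1.35 and 1.36 CPM against none, at least 36.8-fold. Every vector liver was above every PBS liver in these 4 genes, and replicate 2 was highest for Fgf23 and Ptgs2. Sprr1a, a small proline-rich protein of cornified epithelia that is induced in injured tissues, stood at 0.405, 0.0499, 0 and 0.0507 CPM in PBS and 74.2, 31.1 and 49.6 CPM with the vector, a log2 fold change of 8.56 ± 0.52 (SE), or 10.39 without PBS replicate 1, which held most of the PBS counts. Saa1 and Saa2, the serum amyloids of the acute phase, are near-identical paralogs between which reads may be split. Saa1 was at 0, 0.449, 0 and 0.355 CPM in PBS and 23.2, 80.4 and 30.6 CPM with the vector. Saa2 was at 0.18, 0, 0.0872 and 0 CPM in PBS and 6.38, 21.2 and 11.9 CPM with the vector. Mmp12, the macrophage elastase, was at 0.315, 0.0499, 0 and 0 CPM in PBS and 15.9, 27.7 and 4.44 CPM with the vector, with a log2 fold change of 7.31 ± 0.83, 6.65 without vector replicate 2 and 9.50 without PBS replicate 1. In Ch25h, which makes 25-hydroxycholesterol in macrophages, 3 counts in all the PBS libraries faced 481 in the vector libraries, a ratio of 211 with an exact 95% counting interval of 71.7 to 1025. The predicted gene Gm8818 had 2 counts against 273, a ratio of 179 (49.2 to 1489). Leaving out vector replicate 2 moved the log2 fold change of Saa1 from 7.82 to 7.08 and that of Ch25h from 7.56 to 6.19, and leaving out PBS replicate 2 moved them to 8.58 and 8.51. For Saa2 the value without PBS replicate 1 was 8.42 against 7.41, for Gm8818 the value without PBS replicate 4 was 9.50 against 7.14, and for Fgf23 and Ptgs2, whose fitted values are no bounds, they were 10.02 against 10.79 and 7.51 against 9.22 without vector replicate 2.

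Among the largest falls, beside Gm47283 and Erdr1, were hepatocyte enzymes and membrane proteins. Inmt, an indole N-methyltransferase, was at 20.1, 12.1, 11.9 and 15.1 CPM in PBS and 0.196, 1.15 and 0.699 CPM with the vector, 21.8-fold lower. Cyp7a1, which opens the classical route of bile acid synthesis, was at 34.6, 37.3, 28.5 and 36.3 CPM in PBS and 0.785, 0.201 and 5.68 CPM with the vector, a log2 fold change of −3.90 ± 0.65 (SE), or −6.11 without vector replicate 3, the least changed liver. Keg1, a glycine N-acyltransferase-like gene, fell from 30.9, 24.2, 30.7 and 27.8 CPM to 1.23, 0.652 and 3.91 CPM. Leaving out vector replicate 3 moved Keg1 from −3.86 to −4.93 on the log2 scale, Slc4a9, an anion exchanger, from −3.90 to −4.84, the nucleotide receptor P2ry4 from −3.84 to −5.19 and the kinase Dclk3 from −3.80 to −4.90. All 4 genes were lower in each vector liver than in each PBS liver. Scn4b, a sodium channel subunit, was at 4.14, 4.59, 3.92 and 5.12 CPM in PBS and 0.294, 0.301 and 0.37 CPM with the vector, 13.7-fold lower. The predicted gene Gm15622 had 85 counts in all PBS libraries and 2 in the vector libraries, a ratio of 32.3 with a counting interval of 8.68 to 271, and was too low to be tested without PBS replicate 2, 3 or 4.

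Among the genes called at 2-fold, the largest gains in mean CPM were in Hpx, Igfbp1, Serpina3n, Apoa4 and Lcn2, which encode secreted proteins. Hpx, the heme carrier hemopexin, was at 3673, 2707, 2536 and 2429 CPM in PBS and 4404, 8095 and 5100.4 CPM with the vector, 2.04-fold higher. Only vector replicate 2 was more than 2-fold above the mean of the PBS livers for Hpx. Igfbp1, a binding protein of insulin-like growth factors, was at 1153, 1529, 1643 and 1867 CPM in PBS and 3643, 3214 and 3542 CPM with the vector. Serpina3n, an acute-phase protease inhibitor, was at 921, 879, 683 and 719 CPM in PBS and 1484, 2754 and 1734 CPM with the vector. Apoa4, an apolipoprotein of lipid transport, was at 296, 196, 461 and 271 CPM in PBS and 1559, 763 and 1450.3 CPM with the vector. Lcn2, the iron-siderophore binder lipocalin-2, was at 156, 154, 146 and 127 CPM in PBS and 589, 1577 and 432 CPM with the vector, a log2 fold change of 2.55 ± 0.36 that fell to 1.78 without vector replicate 2. In these 5 genes the lowest vector liver was above the highest PBS liver. Among the genes called lower at 2-fold, the largest loss in mean CPM was in Serpina1e, an alpha-1-antitrypsin paralog whose reads may be shared with its copies, at 4574, 3083, 2937 and 3083 CPM in PBS and 1113, 1813 and 1245 CPM with the vector. Bhmt, which remethylates homocysteine with betaine, was at 2222, 1736, 1750.3 and 1612 CPM in PBS and 207, 347 and 510.1 CPM with the vector. Mat1a, which makes S-adenosylmethionine in hepatocytes, was at 2114, 1612, 1629 and 1565 CPM in PBS and 518, 798 and 828 CPM with the vector. Cyp2e1, the ethanol-inducible P450, was at 1997, 1144, 1486 and 1514 CPM in PBS and 226, 261 and 327 CPM with the vector, 5.73-fold lower. Acsl1, which activates long-chain fatty acids, was at 725, 644, 618 and 720.2 CPM in PBS and 182, 89.1 and 331 CPM with the vector. No vector liver reached the lowest PBS liver in any of these 5.

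**Figure D2:**
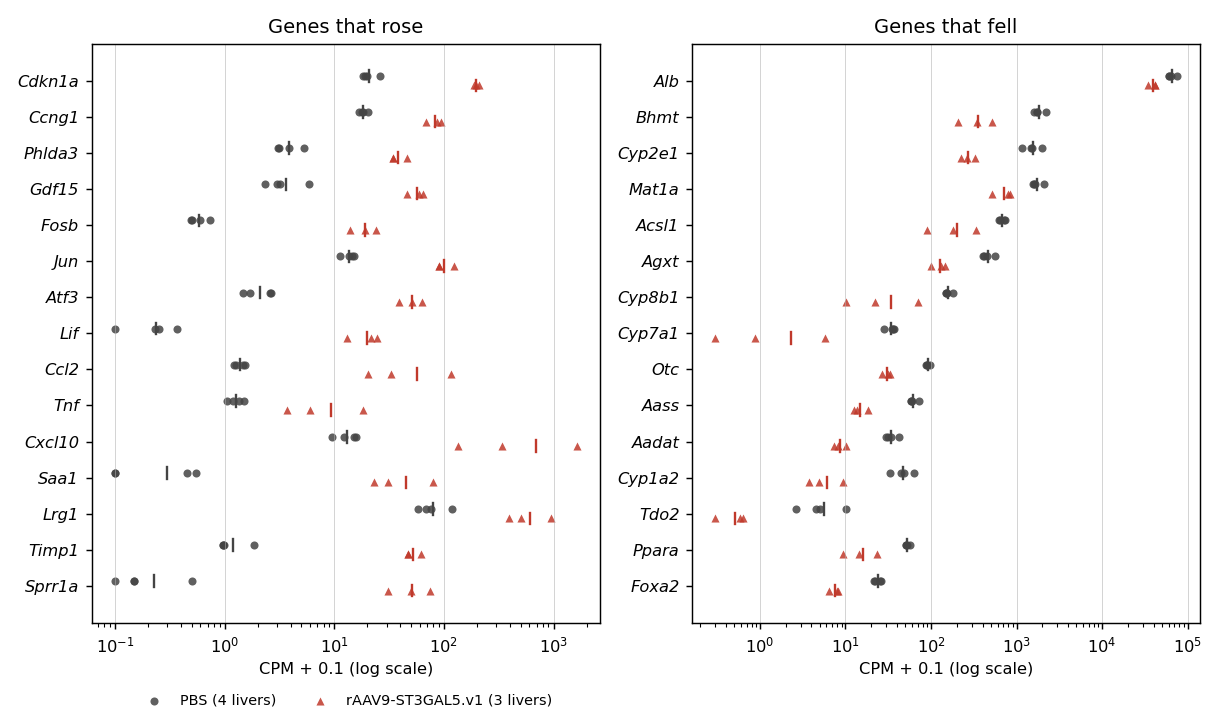
Levels of 15 genes that rose and 15 that fell, as CPM plus 0.1 on log axes, with a point for each liver (circles, 4 PBS livers; triangles, 3 vector livers) and a line at each group's mean. In every gene shown the 2 groups of livers are separate; the vector livers lie close together for Cdkn1a or Timp1 and far apart for Cxcl10, at 133 to 1625 CPM.

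Target genes of p53 rose together. Of 39 tested, 27 were higher and 1 lower, with a median log2 fold change of 1.12 against 0.01 over all genes tested, and 24 were higher without vector replicate 2. Cdkn1a, the cell cycle inhibitor p21, was at 26.1, 18.3, 19 and 19.9 CPM in PBS and 186, 197 and 208 CPM with the vector, 9.34-fold higher (log2 3.22 ± 0.13, SE, adjusted p = 2.2e-06). The vector livers differed from each other by less than the gap to any PBS liver. Ccng1, which encodes cyclin G1, was at 16.8, 20.2, 17.9 and 18.4 CPM in PBS and 87.4, 69 and 94.3 CPM with the vector. Phlda3, an inhibitor of AKT, was at 5.26, 3.79, 3.01 and 2.94 CPM in PBS and 34.3, 34.2 and 46.2 CPM with the vector. Aen, an exonuclease of apoptosis, was at 21.2, 21.5, 22.2 and 22.7 CPM in PBS and 70.3, 67.9 and 71.3 CPM with the vector. Btg2, an antiproliferative gene, was at 98.8, 101.8, 88.3 and 100.5 CPM in PBS and 382, 457 and 367 CPM with the vector. Gdf15, a circulating stress hormone, was at 2.25, 3.09, 2.92 and 5.78 CPM in PBS and 64.7, 59.3 and 46.3 CPM with the vector. Vector replicate 3, the least changed liver for most genes, was the highest for Cdkn1a, Ccng1, Phlda3 and Aen. Eda2r, a receptor for ectodysplasin, was at 0.0899, 0, 0.174 and 0 CPM in PBS and 8.05, 6.02 and 7.82 CPM with the vector, with a log2 fold change of 6.56 ± 0.51 that was 7.57 without PBS replicate 3. Mdm2, the ubiquitin ligase that degrades p53, had a log2 fold change of 1.27 ± 0.16 and Zmat3, an RNA-binding target gene, of 1.70 ± 0.17. The proapoptotic members Bax, Bbc3 and Tnfrsf10b, a death receptor, had log2 fold changes of 1.20, 1.28 and 3.51. Sesn1, a sestrin, was the member that was lower, by a log2 fold change of −0.42 ± 0.11, with 3 lower without vector replicate 3 and none without vector replicate 1.

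Genes of the cell death machinery also rose in part. Of 46 tested, 23 were higher and 1 lower (median 0.47), or 18 and 1 without vector replicate 2. Without PBS replicate 2, 3 or 4, 16 were higher, and 17 without vector replicate 1 or PBS replicate 1. Tnfrsf12a, the receptor of the cytokine TWEAK, was at 21, 12.4, 16.2 and 10.1 CPM in PBS and 136, 139.8 and 92.3 CPM with the vector, 8.09-fold higher. The antiapoptotic Bcl2a1b, 1 of a set of near-identical copies, was at 1.39, 2.14, 1.66 and 1.62 CPM in PBS and 11.5, 26.1 and 6.75 CPM with the vector, with a log2 fold change of 3.09 ± 0.41 or 2.39 without replicate 2. Tnfrsf21, death receptor 6, was at 38.4, 44, 34.5 and 35 CPM in PBS and 64, 59.6 and 58.3 CPM with the vector. Casp8, the initiator caspase of death receptors, was at 21.6, 25.2, 24 and 23.8 CPM in PBS and 32.8, 34.4 and 33 CPM with the vector. These 2 changes were small next to those of the p53 targets and were still free of overlap. The BH3-only gene Bik was the member that fell, from 2.43, 2.84, 2.88 and 4.11 CPM to 0.736, 1.15 and 0.782 CPM.

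Immediate-early genes encode transcription factors and phosphatases made soon after a stimulus. Of 36 tested, 31 were higher and none lower, with a median log2 fold change of 2.06, and 31 were higher without vector replicate 2, where the median was 1.70, and 1 was lower without vector replicate 3. Fos, a subunit of the AP-1 factor, was at 2.92, 4.54, 6.1 and 4.31 CPM in PBS and 37.1, 40.9 and 32.3 CPM with the vector. Its paralog Fosb was at 0.63, 0.499, 0.392 and 0.406 CPM in PBS and 19.1, 24.1 and 13.8 CPM with the vector. Jun, the partner of Fos, was at 13.4, 11.2, 15.1 and 14.5 CPM in PBS and 90.7, 123 and 89.7 CPM with the vector. Junb was at 29.2, 20.4, 38.2 and 29.5 CPM in PBS and 176, 322 and 157 CPM with the vector. Each vector liver held more of these AP-1 subunits than any PBS liver. Atf3, a stress-induced factor of the ATF family, was at 2.52, 1.6, 2.53 and 1.37 CPM in PBS and 51.5, 62.9 and 38.8 CPM with the vector, 24.8-fold higher. Maff, a small MAF protein, was at 5.17, 5.39, 5.89 and 5.99 CPM in PBS and 48.7, 57.9 and 30.9 CPM with the vector. Dusp5, a phosphatase of ERK, was at 7.1, 5.39, 6.41 and 6.19 CPM in PBS and 62.9, 88.7 and 41.4 CPM with the vector. Egr1, a zinc finger factor, was at 30.7, 26.2, 44.7 and 47.4 CPM in PBS and 178, 265 and 146 CPM with the vector. Egr2, its paralog, had a log2 fold change of 5.83 ± 0.59, or 5.06 without replicate 2. Replicate 2 had the highest level of each gene given here per liver.

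The promoters of 2 genes called higher are shown for the AP-1 motif TGACTCA, which was found in 11.48% of the genes called higher that had a promoter window in RefSeq (514 of 714), in 4.87% of those called lower (431 of 626) and in 3.78% of all genes tested (11234 of 14866). A window ran from 250 bases before to 50 after the most upstream start of a gene in GRCm38.p6, both strands were searched, and the genes called higher had a TATA box (TATAAA) in 16.34% of windows against 13.92% and 7.75%. Both stretches run 5′ to 3′ on the strand of the gene, with the motif in capitals as it reads on that strand, and each holds 2 copies on the opposite strand. The first is chr3:92485962-92486051, on the minus strand, bases −170 to −81 from the start of Sprr1a, and the second is chr2:152105404-152105493, on the plus strand, bases −120 to −31 from the start of Srxn1, the NRF2 target sulfiredoxin.
Sprr1a: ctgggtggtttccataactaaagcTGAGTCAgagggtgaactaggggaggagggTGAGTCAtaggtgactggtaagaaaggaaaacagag
Srxn1: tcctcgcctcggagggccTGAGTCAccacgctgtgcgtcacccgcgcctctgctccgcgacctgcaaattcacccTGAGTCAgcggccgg
A match describes letters and no bound factor.

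Stress programs of protein synthesis, oxidation and the endoplasmic reticulum were split. In the integrated stress response, which works through the factors ATF4 and CHOP, 11 of 33 members were higher and 3 lower (median 0.26). Ddit3, which encodes CHOP, was at 9.53, 9.62, 10.4 and 9.23 CPM in PBS and 33.4, 22.5 and 27.8 CPM with the vector, 2.83-fold higher. Chac1, which degrades glutathione, was at 0.54, 1.05, 0.523 and 0.964 CPM in PBS and 5.64, 5.02 and 5.39 CPM with the vector. Nupr1, a stress-induced chromatin protein, was at 2.16, 3.14, 5.76 and 3.2 CPM in PBS and 13.8, 11.3 and 10.1 CPM with the vector. Slc7a11, the cystine transporter, was at 0.225, 0.15, 0.305 and 0.203 CPM in PBS and 5.94, 11.7 and 2.39 CPM with the vector, with a log2 fold change of 4.85 ± 0.56 or 4.16 without replicate 2. In the other direction, Cth, which makes cysteine from cystathionine and is also a liver enzyme of amino acid metabolism, was at 148, 139, 131 and 104 CPM in PBS and 22.4, 30.2 and 37.6 CPM with the vector. Atf5, an ATF4 target that is abundant in liver, was at 1095, 784, 1069 and 837 CPM in PBS and 419, 475 and 531 CPM with the vector. Of 19 tRNA synthetase genes 3 were higher, and none to 3 when 1 liver was left out, with none without PBS replicate 2 or 3 and 1 without vector replicate 1 or 2 or PBS replicate 1 or 4. Of 28 NRF2 targets, 13 were higher and 4 lower (median 0.38). Srxn1 was at 20.9, 20.7, 19 and 19 CPM in PBS and 83.1, 71.5 and 69.6 CPM with the vector. Hmox1, heme oxygenase, was at 138, 132, 117 and 113 CPM in PBS and 310.4, 338 and 268 CPM with the vector. Sqstm1, the autophagy receptor p62, was at 226, 205, 223 and 217 CPM in PBS and 403, 468 and 371 CPM with the vector. The members that fell were catalase and 3 glutathione transferases, and 2 were lower without vector replicate 1 or PBS replicate 4. Among 33 ER chaperones and ERAD genes, 11 were higher and 1 lower, none called at 2-fold. That count fell to 3 without vector replicate 1 or 2 or PBS replicate 3, to 4 without PBS replicate 2 or 4 and to 6 without PBS replicate 1. Eif2ak3, the ER stress kinase PERK, was at 21.1, 31, 31.7 and 31.9 CPM in PBS and 58.9, 56.8 and 46.5 CPM with the vector. Dnajb11, an ER co-chaperone, had a log2 fold change of 0.47 and Sel1l, the ERAD adaptor, of −0.54. Heat shock genes were at 3 higher and 4 lower of 19, with Hspb8 at 0.72 and the mitochondrial chaperonin Hspd1 at −0.42. Over all genes tested 12.5% were higher and 12.7% lower. The counts of heat shock genes and tRNA synthetases that were higher lie near that share. Of 31 proteasome subunits 7 were higher, led by Psmd8 at 0.57, with 2 higher without vector replicate 2 or PBS replicate 2 or 4, 3 without PBS replicate 3 and 4 without vector replicate 1. Of 19 genes of metallothioneins and iron handling 6 were higher and 4 lower, with 3 higher without PBS replicate 2 or 4, none lower without vector replicate 1 and 2 lower without PBS replicate 3.

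The promoters of Chac1 and Slc7a11, members of the integrated stress response, and of Atf3, of the immediate-early list, are shown. They hold the letters TGATGCAA of a C/EBP-ATF response element. Those letters were in 1.95% of the windows of genes called higher (10 genes), 0.46% of those called lower (2 genes) and 0.67% of all genes tested (75 genes). The stretches are chr1:191183404-191183483 on the minus strand (bases −150 to −71 from the start), chr2:119351012-119351092 on the plus strand (−230 to −150) and chr3:50443634-50443713 on the minus strand (−100 to −21).
Atf3: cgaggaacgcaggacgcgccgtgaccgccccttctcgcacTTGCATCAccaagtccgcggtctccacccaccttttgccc
Chac1: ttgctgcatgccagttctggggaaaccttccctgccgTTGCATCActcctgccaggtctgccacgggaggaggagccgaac
Slc7a11: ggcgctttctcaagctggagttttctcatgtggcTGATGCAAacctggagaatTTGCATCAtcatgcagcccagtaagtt
In Atf3 and Chac1 the motif lies on the opposite strand, and Slc7a11 has 1 copy on each strand. The 10 genes called higher that hold it include the near-identical copies Bcl2a1a, Bcl2a1b and Bcl2a1d, whose promoters are not independent.

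Inflammatory cytokines were higher in the vector livers from very low levels. Of the 19 cytokine and growth factor genes tested, out of 28 listed, 15 were called higher and none lower (median 2.15), or 13 without vector replicate 2. The 9 others, interferon beta, interferon gamma and interleukin-10 among them, were too low to be tested. Tnf, which encodes tumor necrosis factor, was at 1.26, 0.948, 1.09 and 1.42 CPM in PBS and 5.89, 18.2 and 3.62 CPM with the vector. Il1b, interleukin-1 beta, was at 2.29, 2.04, 2.83 and 2.74 CPM in PBS and 21, 59.7 and 11.3 CPM with the vector. Il1a, interleukin-1 alpha, was at 4.95, 4.04, 3.27 and 5.78 CPM in PBS and 16.5, 33.3 and 11.3 CPM with the vector. The log2 fold changes of Tnf and Il1b were 2.94 ± 0.50 and 3.60 ± 0.49, and 1.98 and 2.67 without vector replicate 2, the highest of the 3 for both. Lif, a cytokine of the interleukin-6 family, was at 0.27, 0, 0.131 and 0.152 CPM in PBS and 21.8, 24.5 and 13 CPM with the vector, 133-fold higher. Hbegf and Ereg, ligands of the EGF receptor like Areg, rose too. Hbegf was at 2.7, 1.9, 2.57 and 2.59 CPM in PBS and 17.1, 23.9 and 9.3 CPM with the vector. Ereg was at 0.405, 0.249, 0.174 and 0.304 CPM in PBS and 2.11, 4.87 and 1.85 CPM with the vector. All PBS livers lay below all vector livers in each of these genes.

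Chemokines showed the largest median of any list over its tested members, 3.06, with 15 of 21 tested members higher and 2 lower, or 1 lower without vector replicate 1, and the same counts without vector replicate 2, where the median was 2.14. A gene could be tested through its level in the vector livers alone, so the median and its rank rest partly on that filter. Of the 27 listed, 16 were tested for AAV9.empty against PBS. Ccl2, which attracts monocytes, was at 1.12, 1.45, 1.18 and 1.37 CPM in PBS and 32.8, 116 and 20.2 CPM with the vector. Its neighbor Ccl7 was at 0.18, 0.249, 0.0872 and 0.406 CPM in PBS and 15.4, 32 and 11 CPM with the vector. Ccl3, a chemokine of macrophages, was at 0.674, 0.349, 0.872 and 0.558 CPM in PBS and 6.13, 13.9 and 3.04 CPM with the vector. Cxcl1 and Cxcl2, which attract neutrophils through CXCR2, were both higher. Cxcl1 was at 5.58, 3.79, 14.6 and 9.59 CPM in PBS and 66.5, 108 and 39.6 CPM with the vector. Cxcl2 was at 0.36, 0.499, 0.174 and 0.152 CPM in PBS and 12.7, 28.6 and 3.74 CPM with the vector. Cxcl10, an interferon-induced ligand of CXCR3, was at 15, 12.1, 9.55 and 15.8 CPM in PBS and 339.9, 1625 and 133 CPM with the vector. Cxcl9 was at 3.91, 3.49, 3.1 and 2.64 CPM in PBS and 14, 289.7 and 10.7 CPM with the vector. Replicate 2 stood far above both other vector livers for Cxcl9 and Cxcl10. Without replicate 2 the log2 fold changes fell from 5.44 to 4.35 for Ccl2, from 3.60 to 2.85 for Ccl3, from 5.62 to 4.74 for Cxcl2, from 5.72 to 4.15 for Cxcl10 and from 4.97 to 1.88 for Cxcl9, and all stayed past the threshold. Ccl5 and Ccl6 varied less between the vector livers. Ccl5 was at 5.8, 3.84, 3.62 and 2.43 CPM in PBS and 16.8, 14.2 and 18.6 CPM with the vector. Ccl6 was at 8.68, 8.93, 9.68 and 10.3 CPM in PBS and 37.5, 48.6 and 30.8 CPM with the vector. Cxcl12, a chemokine that stromal and endothelial cells make at rest, was lower in each vector liver, at 266, 257, 245 and 244 CPM in PBS and 73.3, 74.1 and 108 CPM with the vector, and Ccl9 was the other member that fell.

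Genes of NF-kB signaling and its feedback were higher in 25 of 31 cases and lower in none (median 1.27). The count higher was 22 without vector replicate 2, 19 without PBS replicate 1 and 18 without PBS replicate 3. Nfkbia, the inhibitor I-kappa-B alpha, was at 23.5, 22.8, 21.3 and 22.2 CPM in PBS and 52.3, 107 and 38.5 CPM with the vector. Nfkbiz, a nuclear cofactor, was at 7.33, 9.38, 10.5 and 8.62 CPM in PBS and 30.9, 40.4 and 21.8 CPM with the vector. Bcl3, another nuclear I-kappa-B protein, was at 17.2, 11.4, 14.4 and 10.2 CPM in PBS and 46.8, 85 and 36.7 CPM with the vector. The endotoxin co-receptor Cd14 was at 4.95, 6.03, 5.93 and 5.78 CPM in PBS and 65.2, 131 and 37.7 CPM with the vector. Il1r1, the interleukin-1 receptor, was at 32.2, 29.5, 32.6 and 39.1 CPM in PBS and 76.5, 86.4 and 59.2 CPM with the vector. Sele, the endothelial adhesion molecule E-selectin, was at 0, 1.4, 0.131 and 0.152 CPM in PBS and 19.3, 27.3 and 7.9 CPM with the vector, with a log2 fold change of 5.44 ± 0.75 or 7.5 without PBS replicate 2, the liver with most of the PBS counts. Without vector replicate 2 the log2 fold change of Cd14 went from 3.76 to 3.15, that of the adhesion molecule Icam1 from 2.27 to 1.4 and that of Tnfaip3, the A20 feedback enzyme, from 2.70 to 1.68. All 8 genes kept their groups apart.

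Promoters of 3 NF-kB-related genes are shown for the motif GGGNNTTTC, which was found in 9.92% of the windows of genes called higher, in 5.8% of those called lower and in 4.51% of all genes tested. They are chr5:90903779-90903858 on the plus strand (bases −120 to −41 from the start), chr5:90891135-90891214 on the plus strand (−110 to −31) and chr12:55492658-55492777 on the minus strand (−130 to −11).
Cxcl2: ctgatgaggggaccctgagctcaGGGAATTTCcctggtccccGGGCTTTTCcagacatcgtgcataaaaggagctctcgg
Cxcl1: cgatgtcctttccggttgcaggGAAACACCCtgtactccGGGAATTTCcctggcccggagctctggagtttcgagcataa
Nfkbia: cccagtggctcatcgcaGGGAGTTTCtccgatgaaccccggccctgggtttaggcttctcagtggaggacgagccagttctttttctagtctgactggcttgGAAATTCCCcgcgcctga
Each stretch holds 2 copies, both on the strand of the gene in Cxcl2 and 1 on each strand in Cxcl1 and Nfkbia.

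The JAK-STAT3 list had 13 higher and 3 lower of 20 members (median 0.82). Socs3, the feedback inhibitor of STAT3, was at 11.8, 16.3, 11.3 and 9.08 CPM in PBS and 83.9, 138 and 61.7 CPM with the vector, 7.68-fold higher. Osmr, the oncostatin M receptor, was at 2.25, 5.39, 2.18 and 5.02 CPM in PBS and 22.5, 33.3 and 13 CPM with the vector. Il6st, the shared signaling chain gp130, was at 92.1, 111, 98.4 and 120.2 CPM in PBS and 233, 285 and 188 CPM with the vector. Cebpd, a C/EBP factor, was at 19.9, 17.9, 19.1 and 12.9 CPM in PBS and 50.7, 74.7 and 40.6 CPM with the vector. Il1rap was lower, and so was the interleukin-6 receptor Il6ra at 56.3, 49.4, 46.6 and 67.1 CPM in PBS and 28.9, 31.6 and 37.7 CPM with the vector. The other was Socs2, a feedback gene of growth hormone, at 37.4, 38.8, 38.8 and 45 CPM in PBS and 24.8, 28.3 and 26.2 CPM with the vector. Of 31 acute-phase proteins, 19 were higher and 1 lower (median 0.80, 17 higher and 3 lower without vector replicate 2). Orm1, orosomucoid, was at 1.26, 0.648, 0.61 and 0.761 CPM in PBS and 23.4, 79.6 and 43.5 CPM with the vector. Saa3, the amyloid that macrophages also make, was at 1.53, 0.698, 0.262 and 1.27 CPM in PBS and 25.8, 62.7 and 43.1 CPM with the vector. Lrg1, a leucine-rich glycoprotein, was at 76, 118, 68.3 and 58.4 CPM in PBS and 509, 946 and 389 CPM with the vector. The summed level of the list was 35283 to 42993 CPM in PBS and 42850.1 to 75258 CPM with the vector. Crp, C-reactive protein, was the member that fell, by a log2 fold change of −0.64 ± 0.14.

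The interferon-stimulated genes depended on vector replicate 2. Of 44 tested, 12 were higher and none lower, with a median of 1.31, but the per-liver median against the mean of PBS was 0.13, 2.44 and −0.16 in vector replicates 1 to 3 and −0.41 to 0.31 in the PBS livers. Without vector replicate 2, 10 were higher and 5 lower, with a median of −0.01, whereas 21 were higher without vector replicate 1, 33 without vector replicate 3, 6 without PBS replicate 1 and 5 without PBS replicate 2, 3 or 4. Gbp2, a guanylate-binding protein, was at 17.4, 17.9, 14 and 20.7 CPM in PBS and 49.3, 576 and 38.8 CPM with the vector. Irf1, a factor of interferon gamma signaling, was at 33.8, 28.1, 33.4 and 36.7 CPM in PBS and 66, 289 and 50.2 CPM with the vector. Nlrc5, which drives MHC class I genes, was at 8.05, 5.93, 6.58 and 7.86 CPM in PBS and 22.7, 77.1 and 16.5 CPM with the vector. Bst2, the antiviral protein tetherin, was at 68.6, 54.6, 50.2 and 65.6 CPM in PBS and 99.4, 159 and 112 CPM with the vector. Without replicate 2 the log2 fold changes fell from 3.64 to 1.31 for Gbp2, from 2.02 to 0.79 for Irf1 and from 2.43 to 1.44 for Nlrc5. Innate sensors were higher in 10 of 28 cases and lower in 2, or 6 and 3 without replicate 2 and 6 and 1 without PBS replicate 3, with 1 lower also without vector replicate 1 or PBS replicate 1 or 2. Clec7a, the fungal receptor dectin-1 of myeloid cells, was at 4.32, 5.93, 3.23 and 6.54 CPM in PBS and 43, 77.2 and 20.8 CPM with the vector. Sting1, the adaptor of cytosolic DNA sensing, was at 9.08, 8.23, 6.1 and 6.75 CPM in PBS and 14.8, 24 and 12.6 CPM with the vector. Nlrp3, the inflammasome sensor, was at 4.32, 3.19, 2.79 and 4.26 CPM in PBS and 6.97, 19 and 8.56 CPM with the vector. Mavs, the adaptor of RNA sensing, was at 51.2, 46.3, 50.1 and 48.1 CPM in PBS and 35.4, 32.7 and 38.8 CPM with the vector, lower in each vector liver.

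Genes of the cytoskeleton, keratins and tissue injury were higher in 31 of 39 cases and lower in 1 (median 0.93), and in 30 without vector replicate 2. Timp1, the inhibitor of matrix metalloproteinases, stood at 0.899, 1.75, 0.872 and 0.862 CPM in PBS and 47.5, 62.1 and 46.5 CPM with the vector, 46.9-fold higher (adjusted p = 2.2e-06). Lgals3, galectin-3, was at 29, 23, 26.4 and 22.5 CPM in PBS and 98.4, 109 and 85.8 CPM with the vector. S100a6, a calcium-binding protein, was at 11.9, 7.53, 11.2 and 9.69 CPM in PBS and 43, 26.7 and 45.2 CPM with the vector. Anxa2, annexin A2, was at 112, 98.5, 115 and 96.8 CPM in PBS and 249.5, 246 and 199.6 CPM with the vector. The keratins of liver epithelium, Krt8 and Krt18, had log2 fold changes of 1.28 ± 0.18 and 1.38 ± 0.21. The lowest vector liver was above the highest PBS liver in each of them. Markers of cholangiocytes, the bile duct cells, were higher in 4 of 10 cases and lower in 2, or in 1 when any liver but vector replicate 3 was left out. Cldn4, a tight junction claudin, was at 0.719, 0.249, 0.698 and 0.355 CPM in PBS and 24.7, 13.9 and 23.9 CPM with the vector. Spp1, osteopontin, was at 25.6, 11.3, 23.9 and 21.2 CPM in PBS and 79.6, 78.5 and 131 CPM with the vector. Sox9, a factor of biliary and progenitor cells, was at 4.86, 2.69, 2.57 and 3.4 CPM in PBS and 18, 32.1 and 11 CPM with the vector. Epcam, an adhesion molecule, was at 3.01, 0.698, 1.92 and 2.18 CPM in PBS and 6.43, 7.52 and 7.82 CPM with the vector. Sox9 and Spp1 also belong to the injury list, and whether cholangiocytes or other cells carried them was not tested.

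Markers of neutrophils and of T and NK cells were higher in part. In bulk tissue a changed number of cells of a type and a changed amount of RNA per cell cannot be told apart. Of 18 neutrophil markers 16 were higher and none lower (median 0.63), or 11 higher without vector replicate 1 or PBS replicate 4. Their summed level was 2045 to 2311 CPM in PBS and 3091 to 3381 CPM with the vector. Csf3r, the receptor of G-CSF, was at 9.04, 9.97, 11.4 and 11.8 CPM in PBS and 21.8, 22.3 and 20.5 CPM with the vector. Cxcr2, the receptor of Cxcl1 and Cxcl2, was at 6.12, 6.03, 5.84 and 4.51 CPM in PBS and 12.7, 13.1 and 10.5 CPM with the vector. Retnlg, a resistin-like protein, was at 10.4, 9.57, 11 and 11.6 CPM in PBS and 27.8, 21.4 and 23.3 CPM with the vector. S100a8 and S100a9, the calprotectin subunits, had log2 fold changes of 0.78 ± 0.12 and 0.72 ± 0.13, and the integrin Itgam of 0.85 ± 0.09. Of 14 T and NK cell markers tested 7 were higher and 1 lower, and the summed level of the list was 42.5 to 54.7 CPM in PBS and 111 to 122 CPM with the vector. Much of the rise in this sum was in Gzma and Gzmb, given below. The 1 lower member was Cd4, a T cell marker, which no longer passed without any 1 vector replicate or PBS replicate 1 or 2. Gzmb, Gzma and Prf1 encode proteins of cytotoxic granules and rose in each vector liver. Gzmb was at 6.92, 6.88, 6.15 and 7.05 CPM in PBS and 26.6, 37.5 and 30.3 CPM with the vector. Gzma was at 20.2, 16.4, 15.7 and 19.98 CPM in PBS and 45.9, 30.9 and 54.2 CPM with the vector. Prf1 was at 0.45, 0.648, 0.174 and 0.558 CPM in PBS and 1.67, 3.21 and 2.63 CPM with the vector. Cd3g, a chain of the T cell receptor complex, was at 2.25, 1.65, 1.53 and 1.88 CPM in PBS and 2.55, 3.01 and 3.29 CPM with the vector, which did not pass (adjusted p = 0.067). Nor did Cd3d, Cd8a, Il7r, Klrd1 or Lck pass. Markers of Kupffer cells, the resident macrophages of the liver, and of monocytes were divided, with 4 higher and 6 lower of 20, or 2 higher without vector replicate 1, and a summed level of 1618 to 1851 CPM in PBS and 1561 to 1913 CPM with the vector. Clec4f, which defines Kupffer cells in mice, was at 205, 159.6, 168 and 179 CPM in PBS and 80.7, 92 and 85.4 CPM with the vector. Cd163, a scavenger receptor, was at 7.28, 7.13, 7.02 and 8.37 CPM in PBS and 2.4, 1.91 and 3.33 CPM with the vector. Csf1r was at 221, 179.9, 178 and 188 CPM in PBS and 100.03, 123 and 113 CPM with the vector. Ly6c2 of monocytes was at 48.1, 39.7, 39.8 and 37.4 CPM in PBS and 67.3, 67.6 and 70.1 CPM with the vector. The part of these cells in the changes of cytokines and chemokines was not tested.

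**Figure D3:**
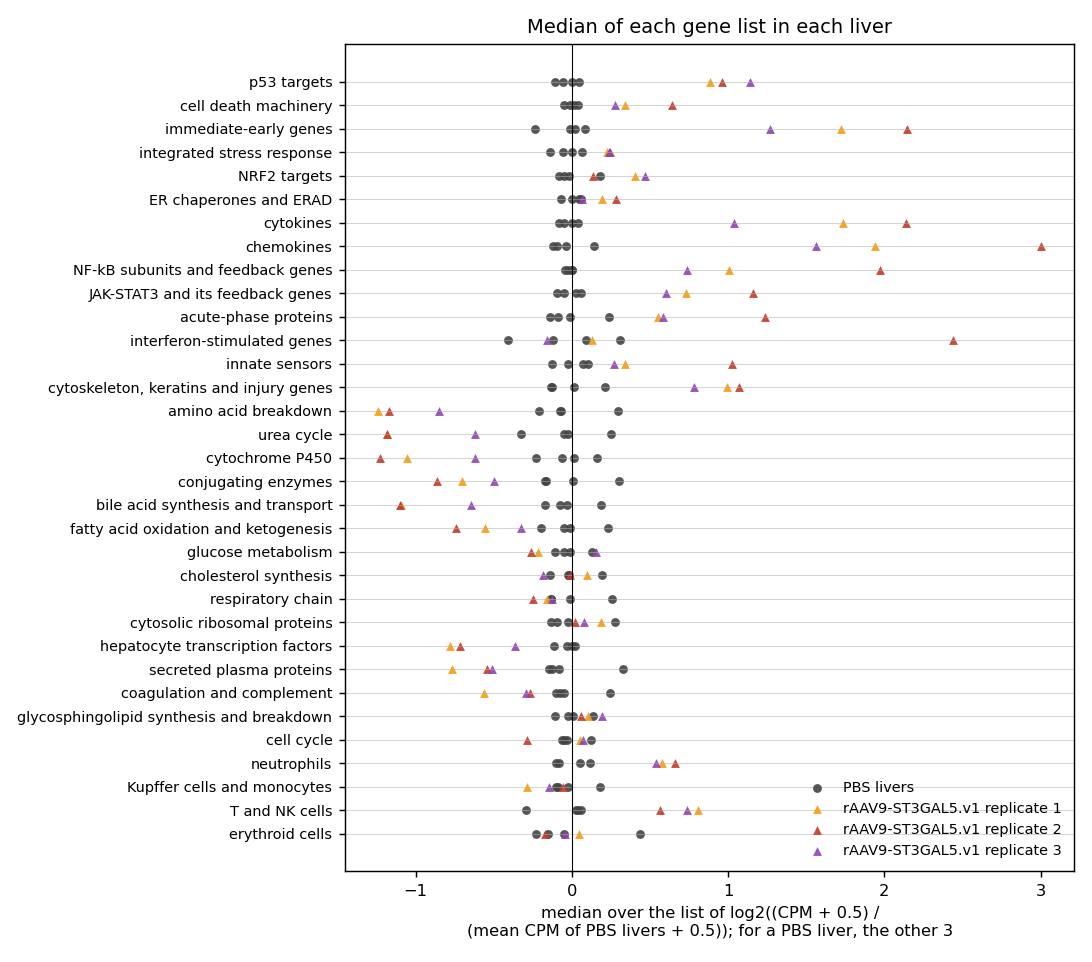
For each of the gene lists plotted, the median over its members of the log2 ratio of a liver's CPM to the mean of the PBS livers (0.5 added to each, and a PBS liver set against the other 3), with a point for each liver. In the lists plotted the PBS livers stay between −0.41 and 0.44; vector replicate 2 stands far to the right for interferon-stimulated genes, at 2.44, and the 3 vector livers keep to the left for amino acid breakdown, at −1.24 to −0.85.

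Enzymes of amino acid breakdown fell together. Of 60 enzymes tested, 55 were lower and none higher, with a median log2 fold change of −1.14, and the summed level of the list was 10598 to 13872 CPM in PBS and 3985 to 5716 CPM with the vector. Tdo2, which opens the tryptophan pathway, was at 10.1, 2.54, 4.4 and 4.97 CPM in PBS and 0.491, 0.201 and 0.535 CPM with the vector, 13.3-fold lower. Aass, of lysine breakdown, was at 71.9, 58.7, 58.8 and 59.4 CPM in PBS and 12.5, 13.4 and 18.5 CPM with the vector. Aadat, of the kynurenine and lysine pathways, was at 41.9, 31.7, 29.9 and 33.7 CPM in PBS and 7.31, 7.98 and 10.1 CPM with the vector. Agxt, which clears glyoxylate, was at 561, 405, 455 and 419.7 CPM in PBS and 99.8, 131 and 147 CPM with the vector. Gnmt, which uses up S-adenosylmethionine on glycine, was at 297, 166, 194 and 196 CPM in PBS and 43, 59.1 and 50.2 CPM with the vector. In each of these the highest vector liver was below the lowest PBS liver. Hpd of the tyrosine pathway had a log2 fold change of −1.87 ± 0.18 and Tat, its rate-limiting transaminase, of −1.31 ± 0.20. In the urea cycle and its supply 10 of 13 genes were lower and none higher (median −0.97). Otc, ornithine transcarbamylase, was at 97.3, 90.2, 88 and 90.2 CPM in PBS and 26.5, 31.3 and 33.2 CPM with the vector. Cps1, the entry enzyme, was at 869, 634, 722 and 839 CPM in PBS and 308, 205 and 508 CPM with the vector. Ass1, argininosuccinate synthase, was at 653, 404, 463 and 429.5 CPM in PBS and 214, 220.1 and 324 CPM with the vector. Car5a, the mitochondrial carbonic anhydrase that feeds bicarbonate to Cps1, was at 7.06, 4.94, 5.62 and 5.22 CPM in PBS and 0.442, 0.301 and 0.782 CPM with the vector, 11.1-fold lower. Gls2, the liver glutaminase, was at 106, 75.9, 72 and 68.5 CPM in PBS and 21.9, 18.1 and 36.2 CPM with the vector.

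Enzymes that clear foreign compounds and make bile acids fell as well. Of 41 cytochrome P450 genes tested 28 were lower and 1 higher (median −0.996), and the 1 higher passed only with all livers in or without vector replicate 2 or PBS replicate 2. Cyp1a2, which metabolizes caffeine, was at 63.9, 33.2, 47.7 and 44 CPM in PBS and 3.68, 9.23 and 4.85 CPM with the vector. Cyp3a25 was at 86.2, 88, 94.6 and 111 CPM in PBS and 21.4, 23.5 and 27.2 CPM with the vector. Cyp2j5 was at 61.9, 56.3, 58.2 and 62.4 CPM in PBS and 15.8, 24.2 and 23.9 CPM with the vector. Cyp3a11, the main inducible member of its family in mice, was at 400.3, 367, 426 and 425 CPM in PBS and 185, 182 and 229 CPM with the vector. Cyp2c54, a member of a cluster of similar genes among which reads may be split, had a log2 fold change of −3.37 ± 0.35. Of 38 conjugating enzymes 25 were lower and 1 higher (median −0.76), with none higher without vector replicate 1 or 3 or PBS replicate 2, 3 or 4 and 2 without vector replicate 2. The list includes Sult2a8, a bile acid sulfotransferase, at 26.2, 30.9, 26.6 and 25.5 CPM in PBS and 3.63, 4.61 and 4.48 CPM with the vector. Sult1a1, a phenol sulfotransferase, was at 229.7, 179.5, 195 and 203 CPM in PBS and 61.8, 75 and 81 CPM with the vector. Ugt1a1, which conjugates bilirubin, was at 525, 361, 395 and 440.4 CPM in PBS and 184, 274 and 210.4 CPM with the vector. In bile acid synthesis and transport 19 of 28 genes were lower and 2 higher (median −0.95), or 1 higher without vector replicate 1. Cyp8b1, which sets the share of cholic acid, was at 181, 155, 151 and 151 CPM in PBS and 21.8, 10.2 and 70.2 CPM with the vector, a log2 fold change of −2.25 ± 0.50 or −3.34 without vector replicate 3. Slc10a1, the sodium-dependent uptake transporter of bile acids, was at 348, 260.1, 283 and 279 CPM in PBS and 129.9, 96.7 and 170.2 CPM with the vector. Slco1b2, an organic anion transporter, was at 216, 299.8, 275 and 305 CPM in PBS and 72.8, 74.4 and 120.4 CPM with the vector. Slc27a5, a bile acid CoA ligase, was at 231, 161, 174 and 183 CPM in PBS and 60.8, 71.2 and 93.4 CPM with the vector. Abcb11, the bile salt export pump, was at 286, 250.04, 287 and 305 CPM in PBS and 149.7, 154 and 148 CPM with the vector. None of these genes had overlapping groups.

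Promoters of 3 genes called lower are shown for CAAAGTCCA, a motif of the hepatocyte factor HNF4, found in 2.55% of the windows of genes called lower (11 genes), in 0.58% of those called higher (3 genes) and in 0.54% of all genes tested (61 genes). They are chr9:121916336-121916415 on the minus strand (bases −110 to −31 from the start), chr8:60506014-60506093 on the plus strand and chr19:40187317-40187396, of a P450 of murine bile acid hydroxylation, on the minus strand, both over the same bases from their starts. Cyp2c70 was at 131, 95.5, 106 and 110.3 CPM in PBS and 26.4, 54.8 and 40.6 CPM with the vector.
Cyp8b1: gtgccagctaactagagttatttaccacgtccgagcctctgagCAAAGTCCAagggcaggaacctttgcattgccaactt
Aadat: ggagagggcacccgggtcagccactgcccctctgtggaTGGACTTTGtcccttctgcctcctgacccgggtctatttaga
Cyp2c70: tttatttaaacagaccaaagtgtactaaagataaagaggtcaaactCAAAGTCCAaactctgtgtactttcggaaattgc
The motif lies on the opposite strand in Aadat. The 11 genes called lower that hold it include the similar genes Cyp2c40, Cyp2c68, Cyp2c69 and Cyp2c70, whose promoters may not be independent. Of the other motifs searched, the cyclic AMP element TGACGTCA was in 3.11% of windows of genes called higher, 0.93% of those called lower and 3.05% of all, the STAT3 motif TTCCNGGAA in 1.56%, 0.93% and 1.24%, CCAAT in 34.82%, 42.69% and 38.77%, and the CArG box in 1.75%, 1.16% and 1.26%.

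Energy metabolism fell in parts. Of 40 genes of fatty acid oxidation and ketogenesis 28 were lower and 5 higher (median −0.59), although 2 were called lower at 2-fold. Ppara, the nuclear receptor of fasting metabolism, was at 51.7, 56, 50.4 and 51.6 CPM in PBS and 14.4, 9.38 and 23.6 CPM with the vector. Acot3, a peroxisomal thioesterase, was at 22.2, 19.6, 20.6 and 18.5 CPM in PBS and 2.35, 1.35 and 4.73 CPM with the vector, a log2 fold change of −2.84 ± 0.32 or −3.46 without vector replicate 3. Against that direction, the lipid droplet proteins Plin2 and Cidec were higher in every vector liver. Plin2 was at 304, 261, 325 and 291 CPM in PBS and 844, 669 and 720.2 CPM with the vector. Cidec was at 1.66, 0.748, 0.872 and 0.659 CPM in PBS and 27.2, 17.4 and 21.9 CPM with the vector. Glucose metabolism was divided, with 11 higher and 10 lower of 34. Genes of liver type were among the lower. Slc2a2, the glucose transporter GLUT2, was at 231, 202, 196 and 238 CPM in PBS and 94.5, 65.1 and 123 CPM with the vector. The ketohexokinase Khk was at 57.8, 41.8, 45.1 and 43.7 CPM in PBS and 19, 23.9 and 24 CPM with the vector. Genes found in most tissues were among the higher, with Slc2a1, the ubiquitous glucose transporter, at 19.6, 23.8, 19.1 and 19.1 CPM in PBS and 34.3, 49.1 and 31.4 CPM with the vector. Pkm, the pyruvate kinase, was at 194, 194, 184 and 166 CPM in PBS and 294, 361 and 309 CPM with the vector, and Hk2, a hexokinase, at a log2 fold change of 1.08 ± 0.23. Pfkfb3, an activator of glycolysis, had a log2 fold change of 2.10 ± 0.36, or 1.4 without replicate 2. Cholesterol synthesis had 8 lower and 3 higher of 25 (median 0.0048), or 4 lower without vector replicate 1 and 5 without PBS replicate 3. Insig1, a sterol-responsive feedback gene, was higher, at 49.8, 51.7, 48.5 and 58.3 CPM in PBS and 80.5, 81 and 74.4 CPM with the vector. In fat synthesis and lipoproteins 10 of 32 were lower and 5 higher, or 3 higher without PBS replicate 2 or 3, with Apoa1, the main HDL protein, at −0.69 and Apoc2, the lipase cofactor, at 0.97 on the log2 scale. The respiratory chain had 9 lower and 1 higher of 42, none called at 2-fold (median −0.18), led by Ndufb10 at −0.44. None was higher when any 1 liver was left out, and 3 were lower without vector replicate 1 and 5 without vector replicate 2 or PBS replicate 3 or 4.

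Transcription factors and secreted products of hepatocytes were lower too. Of 26 factors tested 17 were lower and 2 higher (median −0.69), or none higher without vector replicate 3 and 1 without any other liver. Of 23 glucocorticoid-responsive and clock genes 4 were higher and 8 lower (median −0.43). Foxa2 was at 25.9, 21.6, 25.3 and 22.3 CPM in PBS and 7.8, 6.32 and 7.98 CPM with the vector. Onecut1 was at 17.1, 18.4, 17.3 and 15.3 CPM in PBS and 5.74, 3.76 and 7.65 CPM with the vector. Nr1i3, the xenobiotic receptor CAR, was at 87.8, 86.6, 91.5 and 111 CPM in PBS and 25.5, 16.3 and 45.5 CPM with the vector. Hlf, a PAR-bZIP factor, was at 27.7, 27.5, 25.2 and 24.5 CPM in PBS and 7.6, 8.43 and 13.7 CPM with the vector. Cebpa, a main factor of hepatocyte identity, was at 437, 314, 331 and 302 CPM in PBS and 127, 238 and 168 CPM with the vector. The groups did not overlap in any of these. Hnf4a moved less, at 366, 273, 268 and 301 CPM in PBS and 210.0, 242 and 240.0 CPM with the vector, a log2 fold change of −0.41 ± 0.12 with an adjusted p of 0.031 that no longer passed without vector replicate 1 (−0.34) or PBS replicate 4 (−0.42). Secreted plasma proteins were lower in 26 of 34 cases and higher in 2 (median −0.60). Alb, albumin, was at 75036, 63431, 60456 and 60833 CPM in PBS and 34730.1, 41986 and 41216 CPM with the vector, which was 6.14% to 6.87% of all counts in PBS and 3.84% to 4.40% with the vector. Igf1, insulin-like growth factor 1, was at 95.9, 107, 84.8 and 105 CPM in PBS and 39.4, 57.6 and 43.9 CPM with the vector. Serpina6, the carrier of corticosteroids, was at 5.71, 6.58, 5.49 and 3.14 CPM in PBS and 0.442, 0.903 and 0.905 CPM with the vector. In coagulation and complement 20 of 40 were lower and 1 higher (median −0.38), or 2 higher without vector replicate 1 or PBS replicate 1. Klkb1, which encodes prekallikrein, was at 165, 178, 169 and 193 CPM in PBS and 57.2, 38.2 and 75 CPM with the vector. The complement component C6 was at 14.5, 12.5, 13.1 and 14.3 CPM in PBS and 4.51, 6.57 and 5.02 CPM with the vector. Pros1, the anticoagulant protein S, was the member that rose, at 21.8, 28.4, 28.7 and 25.6 CPM in PBS and 52, 56.7 and 46.9 CPM with the vector. Of genes with a zone in the adult lobule, 10 of 18 pericentral genes were lower and none higher (median −0.65), with 1 higher without vector replicate 3. In the periportal list 13 of 17 were lower and 2 higher (median −1.03), or 1 higher without PBS replicate 3. All 10 hepatocyte markers were lower (median −0.58), or 6 without vector replicate 1, with a summed level of 140242 to 176448 CPM in PBS and 90864 to 106015 CPM with the vector. Their part in the fall of the metabolic genes was not tested.

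None of 20 erythroid and none of 12 megakaryocyte markers passed in either direction, though 1 erythroid marker was lower without vector replicate 1 or 3 and 1 megakaryocyte marker without PBS replicate 3. The list had summed erythroid levels of 44066 to 59336 CPM in PBS and 41317 to 48335 CPM with the vector, and none of 13 B cell markers passed, where 2 were lower without vector replicate 2. Of 18 sinusoidal endothelial markers 2 were higher, among them Lyve1 at 0.52 on the log2 scale, and 4 lower, among them the receptor Gpr182 at −0.58, with 1 lower without vector replicate 1, 8 without vector replicate 3 and 2 without PBS replicate 1 or 4. Of 18 stellate cell and fibroblast markers 8 were higher and 3 lower. The contractile gene Acta2 was at 23.7, 18.6, 15.7 and 16.3 CPM in PBS and 36.1, 58.4 and 45.6 CPM with the vector. Rgs5 of pericytes was at 2.79, 6.13, 4.93 and 2.74 CPM in PBS and 19.4, 11.6 and 19.7 CPM with the vector. Angptl6 was at 22.2, 20.8, 19.2 and 21.4 CPM in PBS and 6.82, 5.72 and 10.9 CPM with the vector.

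Large lists without much change were the 40 cytosolic ribosomal proteins (2 higher, none lower, median 0.07), the 13 mitochondrially encoded genes (1 higher, none lower), the 41 cell cycle genes (2 higher, none lower, median −0.07) and the 31 genes of DNA repair and damage signaling (1 higher, 3 lower, median 0.02). These shares lie below those of all genes tested. The ribosomal count was 0 without vector replicate 1 or PBS replicate 4 4 without PBS replicate 1 and 1 without PBS replicate 2 or 3. When 1 liver was left out, 2 cell cycle genes were lower without vector replicate 3, 2 mitochondrial genes without vector replicate 2, and 1 DNA repair gene in place of 3 without vector replicate 1 or 2 or PBS replicate 1, 3 or 4. The higher counts fell to 1 for cell cycle genes without vector replicate 3 or PBS replicate 2, 3 or 4, and to none for mitochondrial genes without vector replicate 1 or PBS replicate 1 and for DNA repair genes without any liver but vector replicate 3. Ccnd2, which encodes cyclin D2, was 1 of the cell cycle genes that rose, at 26.8, 32.4, 30.1 and 28.6 CPM in PBS and 51, 79.1 and 45.7 CPM with the vector.

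**Figure D4:**
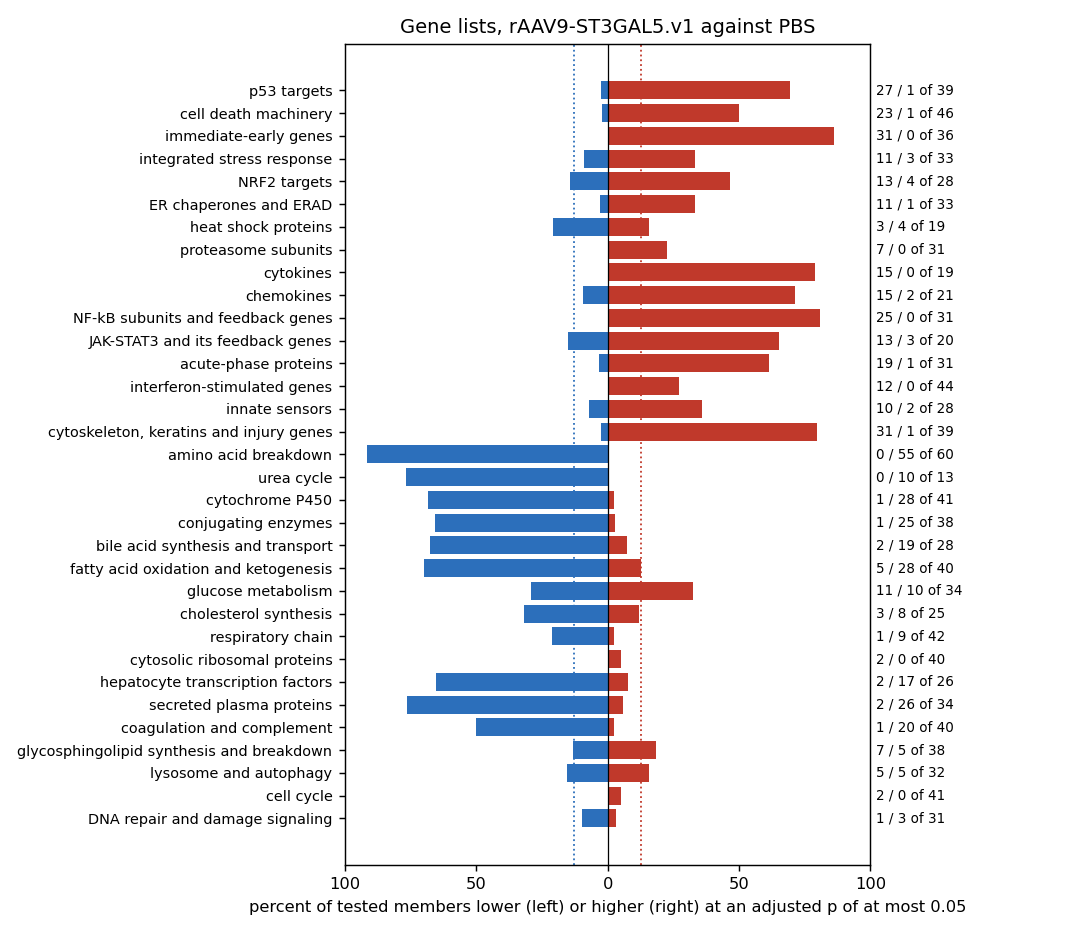
Bars give the percent of tested members of each gene list that were lower (left) or higher (right) with the vector (adjusted p up to 0.05), with the counts at the right edge as higher / lower of tested; dotted lines mark all genes tested, at 12.5% higher and 12.7% lower. Immediate-early genes reach 31 of 36 on the right and amino acid breakdown 55 of 60 on the left, while ribosomal proteins and cell cycle genes stay at 2 higher.

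The mouse St3gal5 gene, whose human ortholog the vector carries, was at 181, 192, 183 and 189.8 CPM in PBS and 155, 116 and 184 CPM with the vector, a log2 fold change of −0.32 ± 0.14 that did not pass (adjusted p = 0.12) and was −0.48 and past the threshold without vector replicate 3. Reads of the human cDNA are not part of this value unless they aligned to the mouse gene, and the vector transcript was not analysed here. Of 38 genes of glycosphingolipid synthesis and breakdown tested, 7 were higher and 5 lower (median 0.12), with 1 lower without vector replicate 1 and 3 without vector replicate 2 or any PBS replicate. The other 26 did not pass, and over all genes tested 12.5% were higher and 12.7% lower. Ugcg, which makes glucosylceramide, was at 47.3, 58, 53.5 and 57.2 CPM in PBS and 100.8, 80.7 and 73.4 CPM with the vector. The lactosylceramide synthases B4galt5 and B4galt6, which make the substrate of ST3GAL5, were higher as well. B4galt5 was at 20.4, 17.2, 14.7 and 21.6 CPM in PBS and 43.7, 69.4 and 26.8 CPM with the vector. B4galt6 was at 8.5, 9.48, 9.24 and 11.1 CPM in PBS and 20.3, 15.4 and 20.1 CPM with the vector. A4galt, which takes the same substrate into globosides, was at 0.764, 0.698, 0.48 and 0.304 CPM in PBS and 2.11, 2.06 and 2.67 CPM with the vector. Gla, the lysosomal alpha-galactosidase that degrades globosides, was at 7.28, 6.63, 8.94 and 5.88 CPM in PBS and 21, 21.7 and 15.9 CPM with the vector. St6galnac6, a sialyltransferase of later gangliosides, was at 34.9, 31.5, 33.1 and 27.9 CPM in PBS and 16.6, 12.5 and 20.4 CPM with the vector. All 6 were past the threshold. Gusb, a lysosomal enzyme and common reference gene, was at 55.1, 46.6, 46.7 and 46.8 CPM in PBS and 59.5, 54.4 and 59.9 CPM with the vector, an adjusted p of 0.097, and passed without PBS replicate 1 at a log2 fold change of 0.29 against 0.23. Of 32 genes of lysosomes and autophagy 5 were higher and 5 lower, with 2 higher without PBS replicate 2 or 3, 3 without vector replicate 1 or 3 or PBS replicate 4, and 1 lower without vector replicate 1.

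The capsid alone was compared with PBS as 4 against 4 livers, of which the PBS livers are those of the comparison above. Of 14476 genes tested, 3 were called higher (0.0207%) and 1 lower (0.00691%), 45 passed without a minimum fold change, 1846 were at an unadjusted p under 0.05, and DESeq2 called 9 and 8. Leaving out 1 liver gave none to 7 higher and none to 10 lower, with 7 and 10 without PBS replicate 1, none of either without PBS replicate 4 and none higher without AAV9.empty replicate 4. The genes called were Jun, the class Ib MHC genes H2-Q6 and H2-Q7, whose reads may be split between near-identical copies, and Inmt. Jun was at 22.9, 18.7, 33.4 and 52.6 CPM with AAV9.empty, a log2 fold change of 1.23 ± 0.24 with an adjusted p of 0.047 that was lost when PBS replicate 2, 3 or 4 or AAV9.empty replicate 3 or 4 was left out. H2-Q6 was at 19, 17.1, 15.3 and 21.4 CPM with AAV9.empty, 10.03, 6.63, 10.9 and 7.15 CPM in PBS and 29, 47.6 and 33 CPM with the vector, and H2-Q7 at 25.4, 26.6, 22.9 and 30.1 CPM, 15.7, 13.7, 11.5 and 11.2 CPM and 48, 71.6 and 66.2 CPM. Inmt was at 8.3, 6.15, 6.78 and 5.46 CPM with AAV9.empty. The calls of H2-Q6 and Inmt were lost without PBS replicate 4. Without a minimum fold change 15 genes were higher and 30 lower with AAV9.empty, among the latter 5 of 41 P450 genes. Keg1 (log2 −0.74, adjusted p = 0.011), Nr1i3 (−0.60, 0.024) and Cth (−0.72, 0.031) passed as lower and Acta2 (0.71, 0.024) as higher. Each went in the direction it had with the vector, and none of them passed without PBS replicate 4. Cdkn1a was at 24.9, 31.5, 27.9 and 29.7 CPM with AAV9.empty, which did not pass (adjusted p = 0.11) but did without PBS replicate 1 (log2 fold change 0.57). Its log2 fold changes against the same PBS livers were 0.45 ± 0.11 for the capsid and 3.22 ± 0.13 for the vector.

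Cargo was compared directly, as rAAV9-ST3GAL5.v1 against AAV9.EGFP, which have the capsid and the promoter in common. Of 14875 genes tested 554 were called higher (3.72%) and 580 lower (3.9%), and 1892 (12.7%) and 2240 (15.1%) passed without a minimum fold change. The 580 were 378 without vector replicate 1. Among called genes with separate groups and at least 1 CPM in the higher group, Gm8818, Fgf23 and Mmp12 were the largest rises and Gm37736, Nrap, a muscle actin-binding protein, and Car5a the largest falls. Fgf23 moved from 8.29 on the log2 scale to 7.51 without vector replicate 2 and 10.72 without AAV9.EGFP replicate 2, and Mmp12 from 8.05 to 7.4 without vector replicate 2. Gm37736 moved from −3.64 to −4.43 without vector replicate 3 and was too low to be tested without AAV9.EGFP replicate 4. Nrap moved from −3.47 to −2.09 without AAV9.EGFP replicate 3 and no longer passed without vector replicate 1 or 2. The p53 targets differed less from AAV9.EGFP than from PBS. Cdkn1a was at 131, 130.4, 124 and 128 CPM with AAV9.EGFP, and the log2 fold change of the vector was 3.22 ± 0.13 against PBS and 0.59 ± 0.07 against AAV9.EGFP. Ccng1 was at 70.6, 67.3, 74.1 and 57.4 CPM with AAV9.EGFP (log2 0.28 ± 0.12, adjusted p = 0.11), Aen at 62.4, 61.6, 63 and 57.6 CPM (log2 0.16 ± 0.06, adjusted p = 0.093) and Phlda3 at 27.7, 29.4, 31.7 and 26.3 CPM (log2 0.38 ± 0.12). All AAV9.EGFP livers were above all PBS livers in these 4 genes. Ccng1 passed without vector replicate 2 (log2 fold change 0.41), and Phlda3 (adjusted p = 0.039) no longer passed without AAV9.EGFP replicate 1, 2 or 4 or vector replicate 3. Of the 39 p53 targets 16 were higher and 5 lower than with AAV9.EGFP. Fos was at 26.1, 22.8, 30.9 and 27.7 CPM with AAV9.EGFP, a log2 fold change of 0.42 ± 0.12 that passed (adjusted p = 0.03) but not without AAV9.EGFP replicate 1, 2 or 4 or vector replicate 1 or 2.

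Inflammatory and metabolic genes differed between the cargoes. Timp1 was at 1.29, 0.921, 1.13 and 1.29 CPM with AAV9.EGFP, a log2 fold change of 5.45 ± 0.16 (adjusted p = 8.1e-07), and Atf3 at 4.32, 3.57, 4.02 and 2.49 CPM, 3.80 ± 0.21. Ccl2 was at 0.954, 1.5, 1.39 and 1.63 CPM and Saa1 at 0.168, 0.576, 0.0515 and 1.01 CPM, which overlapped the PBS livers. Without vector replicate 2 their log2 fold changes against AAV9.EGFP went from 5.32 to 4.24 and from 6.55 to 5.82, and that of Saa1 was 7.38 without AAV9.EGFP replicate 4. For the lists, 27 of 36 immediate-early genes, 15 of 21 chemokines, 28 of 31 NF-kB genes and 18 of 31 acute-phase proteins were higher than with AAV9.EGFP, and 55 of 60 enzymes of amino acid breakdown were lower. Aass was at 54.8, 43.6, 34.2 and 42.8 CPM with AAV9.EGFP (log2 −1.59 ± 0.18), Cyp2e1 at 1073, 1239.5, 1137 and 1282 CPM (−2.16 ± 0.13), Otc at 59.9, 74.3, 62.1 and 86.3 CPM (−1.25 ± 0.14) and Alb at 59099.8, 56442, 56316 and 58572 CPM (−0.58 ± 0.10). The AAV9.EGFP livers were below all PBS livers for Aass, Otc and Alb and overlapped them for Cyp2e1, and every AAV9.EGFP liver was above every vector liver in each of them. Of the 4 AAV9.EGFP livers 3 also had no count of Gm47283 or Erdr1, as had 1 of the 4 AAV9.empty livers.

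**Figure D5:**
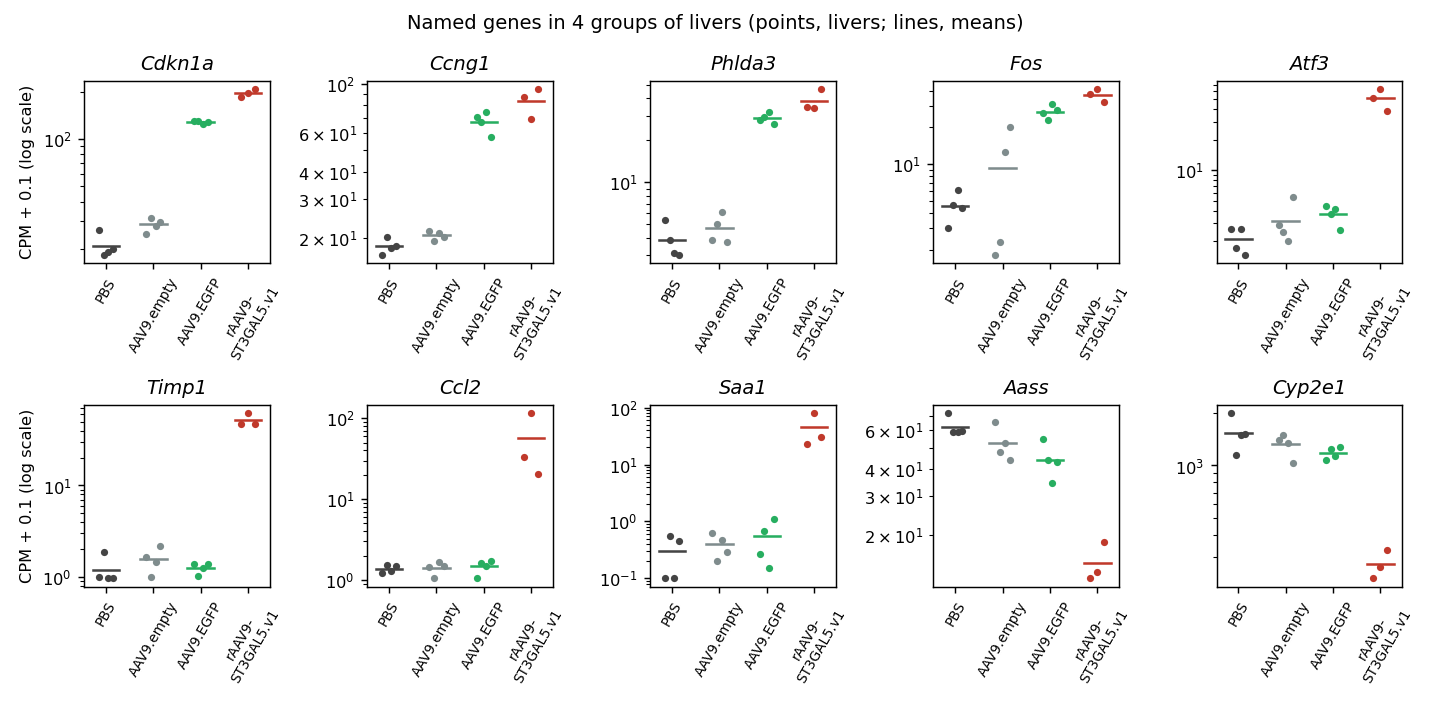
CPM plus 0.1 of 10 genes on log axes, with a point for each liver and a line at the mean of PBS, AAV9.empty, AAV9.EGFP (4 livers each) and rAAV9-ST3GAL5.v1 (3 livers). Cdkn1a, Ccng1 and Phlda3 are above PBS with AAV9.EGFP as well, at 124 to 131 CPM for Cdkn1a. The rAAV9-ST3GAL5.v1 livers still lie above all AAV9.EGFP livers for Cdkn1a, Phlda3 and Fos and overlap them for Ccng1. Every rAAV9-ST3GAL5.v1 liver lies above all livers of the other groups for Atf3, Timp1, Ccl2 and Saa1 and below them for Aass and Cyp2e1.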

How the data were processed

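RNA-seq was performed on 22 neonatal mouse livers in 6 groups. The authors trimmed reads with Trimmomatic, aligned them with STAR to mm10 and GENCODE genes and quantified them with RSEM, and versions are not given in the sources used here. They deposited expected counts per gene (55291 genes, 27521 without a count, 5.694% of values not whole) and TPM, that is, values scaled for gene length and library total. Expected counts were rounded to whole numbers. Genes kept by filterByExpr were tested in edgeR (4.0.16, R 4.3.3) by the quasi-likelihood F-test after TMM scaling, 2 groups per fit, two-sided, with Benjamini-Hochberg adjustment over all genes tested. The filter could keep a gene by its level in 1 group alone, so counts and medians of lists near 0 in PBS rest partly on it. For AAV9.empty against PBS, 16 chemokines, 13 cytokines and 30 immediate-early genes were tested, against 21, 19 and 36 in the main comparison. SE is the log2 fold change divided by the square root of F. Expected counts share reads between similar genes by estimate, so paralogs are uncertain. DESeq2 (1.42.0), limma (3.58.1) on log2 TPM, other filters and scalings, a replicate block and leaving out each library were the alternatives. In simulated counts for the main comparison (14866 genes), 100 genes were changed 2-fold and 100 were changed 4-fold. Of the former 68% passed the adjusted p, of the latter 87% were called, and 8 unchanged genes were called. Since 3745 genes passed in the data, far more than were changed there, these rates need not hold for the comparison.

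The members and the 50 gene lists were chosen with earlier results of these data known. Of 1357 list symbols 1345 were in the table and 1303 were tested. Genes named are the 10 largest rises and falls past both thresholds with separate groups and at least 1 CPM in the higher group (3 in the other comparisons), the 5 largest gains and losses in mean CPM past both thresholds, 8 genes the study names for liver, up to 5 members per list with the smallest adjusted p and other members named beside their list's count, and Gm47283, Erdr1 and Mid1. Some genes that this rule names are not reported here. A floor of 3 counts over a group stood for groups without a count, and counting intervals and floors cover counting error only. Coordinates and promoter sequences are from RefSeq on GRCm38.p6, matched by symbol.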

Additional observations from a re-analysis of the deposited data

Results flagged for a closer look

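Of 279 groups of 4 livers checked, 16 had 1 liver farther from the rest than Dixon's critical value for 4 samples, where chance alone flags about 1 in 20 groups. The genes named for the main comparison were checked in PBS. In AAV9.empty, AAV9.EGFP and rAAV9.Syn1.ST3GAL5.miR122BS livers a shorter set of genes was checked. Numbers of flags are therefore not comparable between PBS and the other groups. Of the 14 in PBS, 8 concerned replicate 1. It was the highest for the hepatocyte genes Aass (71.9 CPM), Cyp8b1 (181 CPM), Mat1a (2114 CPM) and Serpina1e (4574 CPM), for Gusb (55.1 CPM) and, at very low levels, for Mmp12 (0.315 CPM) and Sprr1a (0.405 CPM), and the lowest for Eif2ak3 (21.1 CPM). Replicate 2 was highest for Sele (1.4 CPM), Slc2a1 (23.8 CPM) and Timp1 (1.75 CPM) and lowest for Hbegf (1.9 CPM). Replicate 4 was lowest for Cxcr2 (4.51 CPM) and held the 2 counts of Gm8818 (0.101 CPM). In all of these but Gusb, the groups of PBS and vector livers were separate.

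Outside PBS, AAV9.EGFP replicate 3 stood above its group for Cyp7a1 (26.1 CPM against 14 to 15 CPM), and replicate 1 of the group given rAAV9.Syn1.ST3GAL5.miR122BS, not compared here, stood below its group for Cyp2e1 (823 CPM against 965 to 992 CPM).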

How the results depend on the processing

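For rAAV9-ST3GAL5.v1 against PBS, 714 genes were higher and 626 lower. Calls by DESeq2 (708 and 664), with median-of-ratios size factors (713 and 633), without a filter (861 and 650), with a mean count of at least 10 (703 and 611), with all 6 groups in one fit (819 and 705), with robust dispersion (665 and 619) and with an erythroid covariate (646 and 608) stayed within 1.5 times. Leaving out 1 liver gave 544 to 818 higher and 489 to 815 lower. limma on log2(TPM + 1) gave 466 and 310, on log2(TPM + 0.1) 631 and 398, and on log2(TPM + 1) without a filter 440 and 275. These 3 scalings moved the median of all genes by 0.124, 0.144 and 0.105. No minimum fold change gave 1852 and 1893. For AAV9.empty against PBS (3 higher, 1 lower), DESeq2 gave 9 and 8, no filter 80 and 14, all groups in one fit 4 and 0, robust dispersion 3 and 3, the erythroid covariate 2 and 4, TPM + 1 gave 1 and 0 with and without a filter, TPM + 0.1 2 and 0, no minimum fold change 15 and 30, and leaving out 1 liver 0 to 7 and 0 to 10. For rAAV9-ST3GAL5.v1 against AAV9.EGFP (554 higher, 580 lower), TPM + 1 gave 344 and 221, TPM + 0.1 471 and 302, TPM + 1 without a filter 325 and 179, no minimum fold change 1892 and 2240, and leaving out 1 liver 421 to 685 and 378 to 750. The cause of these differences was not tested.

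Replicate numbers were treated as names only. Same-numbered PBS and vector livers deviated with correlations of −0.281, −0.055 and 0.007, and differently numbered ones with −0.075 to 0.188. Whether a number stands for a shared litter or batch cannot be told from these values. A replicate block gave 599 and 576 for the vector against PBS, 6 and 4 for AAV9.empty and 421 and 441 against AAV9.EGFP. With the block the log2 fold change of Mid1 was 0.18 in place of −0.15. Leaving out 1 liver moved it between −0.36 and 0.14. No other direction of a named gene reversed under any alternative. Of 1652 leave-one-out values of named genes, 21 lost and 4 gained their call. Of 236 values 32 lost and 3 gained it on TPM + 1 without a filter, 7 lost it with the block and none changed with DESeq2, and of 221 values 12 lost and 3 gained it on TPM + 1 and 9 lost and 3 gained it on TPM + 0.1. Of the 44 counts of list members higher or lower that were 5 or more, 16 moved by over 1.5 times on TPM + 1 without a filter, 13 with the block, 7 on each of the other TPM scalings, 2 with the erythroid covariate, 1 with each of median-of-ratios factors, no filter, robust dispersion and all groups in one fit, and none with DESeq2 or a mean count of at least 10. Leaving out 1 liver moved 42 of 308. Counts near 0 limit the precision for genes under 1 CPM.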
